A study of Homo sapiens with 8 samples.

Results

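28S rRNA is the large RNA of the 60S ribosomal subunit, and its crosslink sites are described here across 8 iCLIP libraries of 2 dihydrouridine synthases, DUS1L and DUS2L. The sites are the sense-strand positions of the ribosomal reference that lie within RNA28SN1 and carry at least 1 count. That gene was placed on chromosome 21 from 8441146 to 8446211 (hg38, plus strand) and is 5066 nt long. It occupies positions 7925 to 12990 of the 45S transcription unit RNA45SN1, so that position 1 of 28S is base 7925 of the unit. Of the 5066 positions of 28S, 4095 held a count in at least 1 library, out of 16258 sense sites in the whole series, and together they held 61757 sense counts. No position was occupied in all 8 libraries (0), and 617 were occupied in all 4 DUS2L libraries.

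28S rRNA is cut from the 45S precursor made by RNA polymerase I, and it builds the large ribosomal subunit together with 5.8S and 5S rRNA. It holds the peptidyl transferase centre, where peptide bonds form, and carries many pseudouridines and 2′-O-methyl groups placed by guide RNAs. Dihydrouridine synthases saturate a double bond of uridine, and the dihydrouridine they make is best known from the D loop of tRNA. iCLIP reads the base next to the point where reverse transcription stops at a protein left on the RNA, so that each count marks a single nucleotide.

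The cells were Flp-In T-Rex 293, a line derived from human embryonic kidney, and all groups carried a tagged enzyme and received the inducer. The first group expressed 3xFLAG-DUS1L and stayed untreated, and the second expressed it with 100 µM 5-chlorouridine (5-ClUrd), a uridine analogue on which enzymes that act at uridine can be caught. The remaining groups expressed 3xFLAG-DUS2L, one without and one with the analogue. The inducer was tetracycline at 1 µg/mL, given 12 h ahead of the medium change and kept, with or without 5-ClUrd, for 12 h afterwards. Each group had 2 libraries, called biological replicates in the series' design. The tagged copy came from an inducible transgene beside the cells' own enzyme, and no untagged or mock library was analysed here, so that binding of the tag or beads alone was not tested.

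Depth differed widely. Total counts per library lay between 7395 and 830326, and the smallest was the second untreated DUS1L library, which held 23 counts on 28S at 20 positions and had counts in 15 of 51 windows of 100 nt. Each result that uses this library is therefore thinly based, and the range of the fitted 28S changes and numbers of calls with a library left out is given at the end. Within a group the 28S profiles over these windows (log2 shares) correlated at 0.942 for the untreated and 0.917 for the treated DUS2L libraries, at 0.769 for the treated and at 0.00044 for the untreated DUS1L libraries (Pearson, across 51 windows of one RNA, given as a description). Replicates still differed beyond counting noise, with a chi-square per degree of freedom of 11.5, 10.3, 11.2 and 2.30 in the same order.

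28S rRNA took a far larger part of the DUS2L counts than of the DUS1L counts, and in DUS2L cells its part was lower with 5-ClUrd. The untreated DUS2L libraries held 18776 and 17377 counts on 28S, which were 14.4% and 10.1% of their sense counts. The treated DUS2L libraries held 6635 and 10920 counts, or 1.79% and 3.01%. Both treated libraries lay below both untreated ones. The untreated DUS1L libraries held 1017 and 23 counts, or 0.705% and 0.312%, and the treated ones 4313 and 2696 counts, or 0.523% and 0.497%. All 4 DUS1L libraries lay below all 4 DUS2L libraries, and within DUS1L the treated values fell between the untreated ones.

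**Figure D1:**
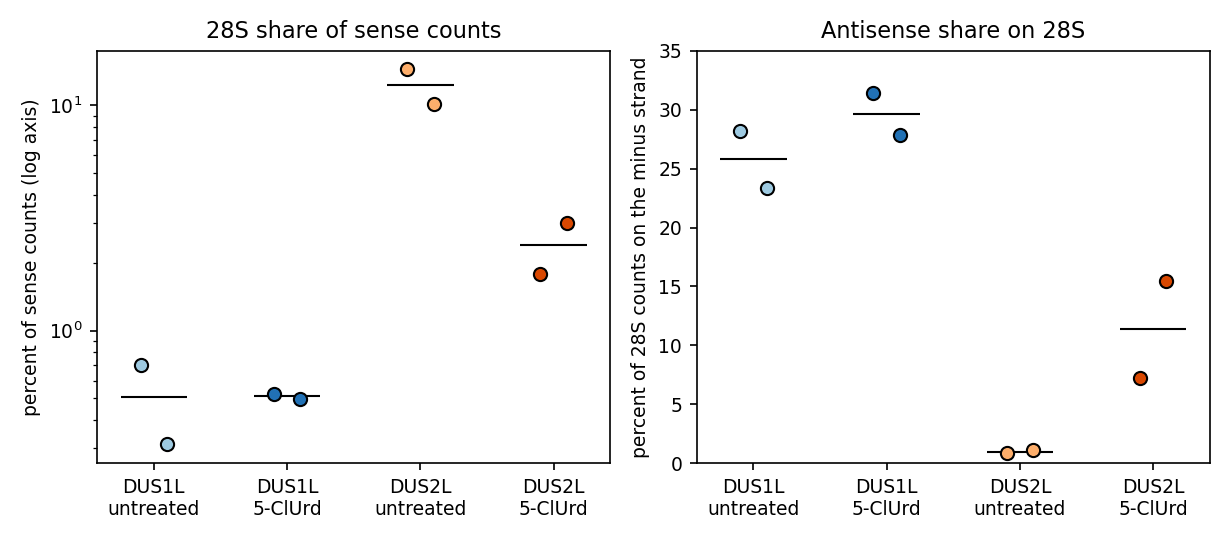
Left, the share of each library's sense counts on 28S (log axis); right, the share of 28S counts on the minus strand, by group. Points are single libraries and lines are group means of 2 libraries. The untreated DUS2L libraries reach 14.4% and 10.1% on the left and lie at 0.829% and 1.08% on the right, while the 4 DUS1L libraries stay below 1% on the left and between 23.3% and 31.4% on the right.

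In edgeR's quasi-likelihood test over 55 families of tRNA and rRNA, scaled to all sense counts, 28S counts changed by -2.35 ± 0.32 on the log2 scale with 5-ClUrd in DUS2L cells (SE, n = 2 against 2, Benjamini-Hochberg adjusted p = 0.000589). In that comparison 23.6% of all families were lower and 52.7% higher. These values are relative to all sense counts of a library, so that a change in 28S contacts as such, apart from the other families, was not tested. Counting each site once, whatever its depth, gave -0.81 (adjusted p = 7.83e-05). 18S rRNA, the RNA of the small ribosomal subunit, changed by -2.31 ± 0.30 there, so that both large rRNAs moved by similar amounts. In DUS1L cells 28S changed by -0.02 ± 0.75 (adjusted p = 0.976, with 1.89% of families called lower), and the direction of so small a value was not settled, as it was 0.71 without the first untreated library. The median of all families moved by 0.86 in DUS2L and 1.35 in DUS1L with this scaling. Relative to that median 28S lay at -3.21 in DUS2L and -1.38 in DUS1L. With TMM factors, which move the median to 0.32 in DUS1L, 28S itself was at -1.08 there.

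The 5-ClUrd effect on 28S was lower in DUS2L than in DUS1L by -2.30 ± 0.60 on the log2 scale (SE, edgeR interaction term over all 8 libraries, adjusted p = 0.0260; 18.2% of families were lower). This difference missed the threshold with TMM factors (-3.18, adjusted p = 0.0798). It also missed it without either treated DUS1L library (adjusted p = 0.0981 and 0.106), either untreated DUS2L library (0.129 and 0.0765) or the first treated DUS2L library (0.0894). Between untreated cells 28S was higher with DUS2L by 4.54 ± 0.48 (adjusted p = 7.06e-05, with 47.3% of families higher), and between treated cells by 2.23 ± 0.43 (adjusted p = 0.00245, with 38.2% higher). The other rRNA families also passed as higher between untreated cells: 5S by 4.22, 18S by 3.65, 5.8S by 3.40 and the 45S spacers by 2.50. Their differences of effects were negative as well, at -1.33, -2.06, -2.72 and -1.69 in that order, and none passed. For 28S with TMM factors the value between treated cells was 1.80 (adjusted p = 0.0802). With each site counted once, the difference of effects was -1.30 (adjusted p = 0.377), the untreated comparison 1.89 (0.0729) and the treated one 0.59 (0.584), and none passed. The deposited DUS1L and DUS2L site files were named differently, so that enzyme and file making cannot be told apart in these comparisons.

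28S and 18S can be compared per kilobase, since both come from the same precursor in equal copies. In DUS2L cells the counts per kilobase on 28S were 1.53 and 1.52 times those on 18S without the analogue, and 1.40 and 1.54 times with it. These libraries overlapped, and the log2 ratio differed by -0.06 (exact two-sided permutation test, p = 1). In DUS1L cells the ratio was 0.828 and 0.943 untreated and 0.670 and 1.66 treated. Both untreated DUS2L libraries had a higher ratio than both untreated DUS1L libraries (p = 0.33333, the smallest value that 2 against 2 libraries allow in this exact permutation test), and with each site counted once that difference was -0.0039 on the log2 scale.

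DUS2L counts lay on more positions of 28S in untreated than in treated cells. Untreated DUS2L libraries covered 2499 and 2433 positions and treated ones 1609 and 1938. At an equal depth of 1000 counts on 28S, 625 and 595 positions would be occupied in the untreated libraries and 454 and 432 in the treated ones (expected values from the counts, without resampling). The 10 highest positions held 11.2% and 15.7% of untreated and 36.3% and 39.1% of treated 28S counts. On both measures the treated and untreated libraries were separate (exact two-sided permutation test, p = 0.33333, the smallest possible). In DUS1L cells the first untreated library would occupy 602 positions at that depth and the treated ones 505 and 443, and the 10 highest positions held 15.1% of 28S counts in that untreated library and 20.2% and 29.3% in the treated ones. Sites of a single count were 22.1% and 24.2% of the untreated DUS2L sites, and between 48.8% and 85% of the sites in every other library.

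**Figure D2:**
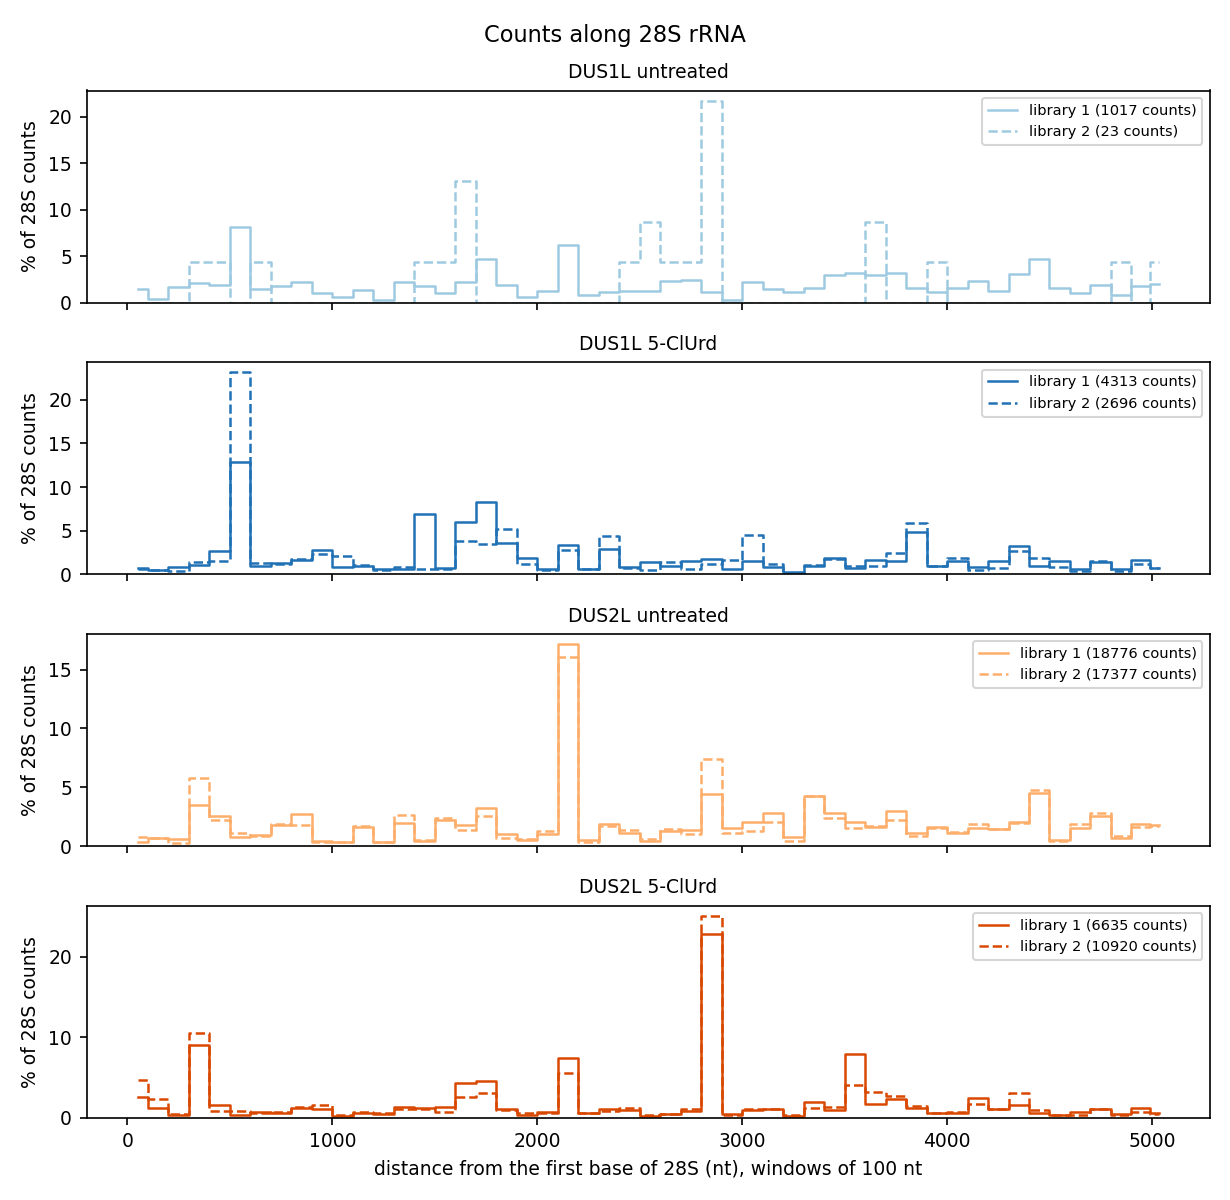
Share of each library's 28S counts in windows of 100 nt, against the distance from the first base of 28S (nt), with one panel per group and one line per library. The 28S counts behind each line are in the legends. The window from 2101 to 2200 stands highest in untreated DUS2L cells (17.2% and 16.0%), the window from 2801 to 2900 in treated DUS2L cells (22.8% and 25.1%), and the window from 501 to 600 in treated DUS1L cells (12.8% and 23.1%).

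As shares of 28S counts, 4 of 6 stretches of up to 1000 positions did not overlap between treated and untreated DUS2L libraries. Positions 4001 to 5000 held 17.8% and 18.8% of untreated and 10.2% and 10.3% of treated 28S counts. The last 66 positions, 5001 to 5066, held 1.77% and 1.73% untreated and 0.603% and 0.485% treated. Both were lower with 5-ClUrd. The first 1000 positions held 14.3% and 15.6% untreated and 18.9% and 23.9% treated, and positions 2001 to 3000 held 30.6% and 32.3% untreated and 35.7% and 36.3% treated, both higher with 5-ClUrd. The stretches from 1001 to 2000 and from 3001 to 4000 overlapped. Because all 6 are shares of the same 28S total, a rise in some stretches brings a fall in others. The 4 are therefore not independent results. The exact permutation test of 2 against 2 libraries cannot go below p = 0.33333. Separation of a stretch is thus not rare without any effect, and no background is given for the count of 4.

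Divided into 51 windows of 100 nt (the last of 66 nt), 28S was tested beside the other families. In DUS2L cells its share of sense counts fell across most of its length. By edgeR's test 44 of 51 windows were lower with 5-ClUrd and 0 were higher (44 at an unadjusted p under 0.05, all of them lower), against 53.3% lower and 28.6% higher among all 105 windows and families. Here and below, such shares of all rows include the 51 windows, which were 44 of the 56 lower rows in this comparison. In DESeq2's Wald test and every other alternative with windows of this length and a scaling that is not 28S itself, the count stayed within 1.5 times of 44. That count joins both directions. With TMM factors 2 windows were higher and 37 lower, with DESeq2 size factors 2 and 33, and in the Wald test 2 and 35. In the main setting the median over the 51 windows was -2.91 on the log2 scale, beside -0.98 over all 105 rows and 0.87 over the rows outside 28S.

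The window from 2101 to 2200 (chr21:8443246-8443345) was the highest of untreated DUS2L cells. It held 2481 and 1620 counts per 100000 sense counts untreated and 134 and 167 treated, a change of -3.77 ± 0.30 (SE, edgeR adjusted p = 2.18e-25). Its counts were spread out: 94 of its 100 positions held a count in some library. The largest fall was in the window from 4401 to 4500 (chr21:8445546-8445645), from 651 and 478 to 9.98 and 30.3 per 100000, or -4.81 ± 0.47 (adjusted p = 4.83e-19). The next falls were in the windows starting at 4601 (-4.22), 5001 (-4.08), 2901 (-4.05) and 2601 (-3.88). The window from 3301 to 3400 fell by 3.83 on the log2 scale, from 609 and 428 to 36.1 and 36.6 per 100000. In all of these windows both treated libraries lay below both untreated ones.

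The 7 windows that did not pass were those starting at 1, 101, 901, 1201, 1401, 2801 and 3501. The window from 2801 to 2900 (chr21:8443946-8444045) held 640 and 745 counts per 100000 untreated and 408 and 754 treated, so that the groups overlapped (-0.25 ± 0.30, adjusted p = 0.421). The window from 1 to 100 held 54.6 and 76.7 untreated and 46.9 and 140 treated (0.51 ± 0.63, adjusted p = 0.440), again with overlap. The window from 3501 to 3600 held 294 and 156 untreated and 141 and 124 treated (-0.76 ± 0.47, adjusted p = 0.123). The window from 301 to 400, which passed, had the smallest change of the 44, at -1.19 ± 0.36, from 506 and 587 to 162 and 316 per 100000. A few positions carried some of these windows. Positions 321 to 325 held 383 of 658 and 797 of 1010 untreated counts of that window, and 573 of 602 and 1093 of 1147 treated ones. Positions 2887 to 2892 held 547 of 832 and 1137 of 1282 untreated counts of the window from 2801 to 2900, and 1462 of 1514 and 2579 of 2739 treated ones.

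When the libraries were scaled to their 28S counts, the question was how the counts were distributed within 28S. In DUS2L cells 8 windows were higher and 21 lower with 5-ClUrd. Among all 105 rows 53.3% were higher and 20% lower. The lower rows were these same 21 windows, and the other families shift with the 28S total used as the scale. Here and below, shares of all rows with this scaling are therefore no background for the windows. The higher windows began at 1, 101, 301, 901, 1401, 1601, 2801 and 3501, and 6 of them were among the 7 that had not passed before. The window from 1 to 100 went from 0.378% and 0.760% to 2.62% and 4.67% of 28S counts (2.69 ± 0.37 on the log2 scale, edgeR adjusted p = 3.52e-11). The window from 2801 to 2900 went from 4.43% and 7.38% to 22.8% and 25.1% (2.02 ± 0.56, adjusted p = 0.000834). Both were separate in all 4 libraries. The lower windows were led by that from 4401 to 4500, which went from 4.51% and 4.73% to 0.558% and 1.01% (-2.54 ± 0.38, adjusted p = 1.20e-09).

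**Figure D3:**
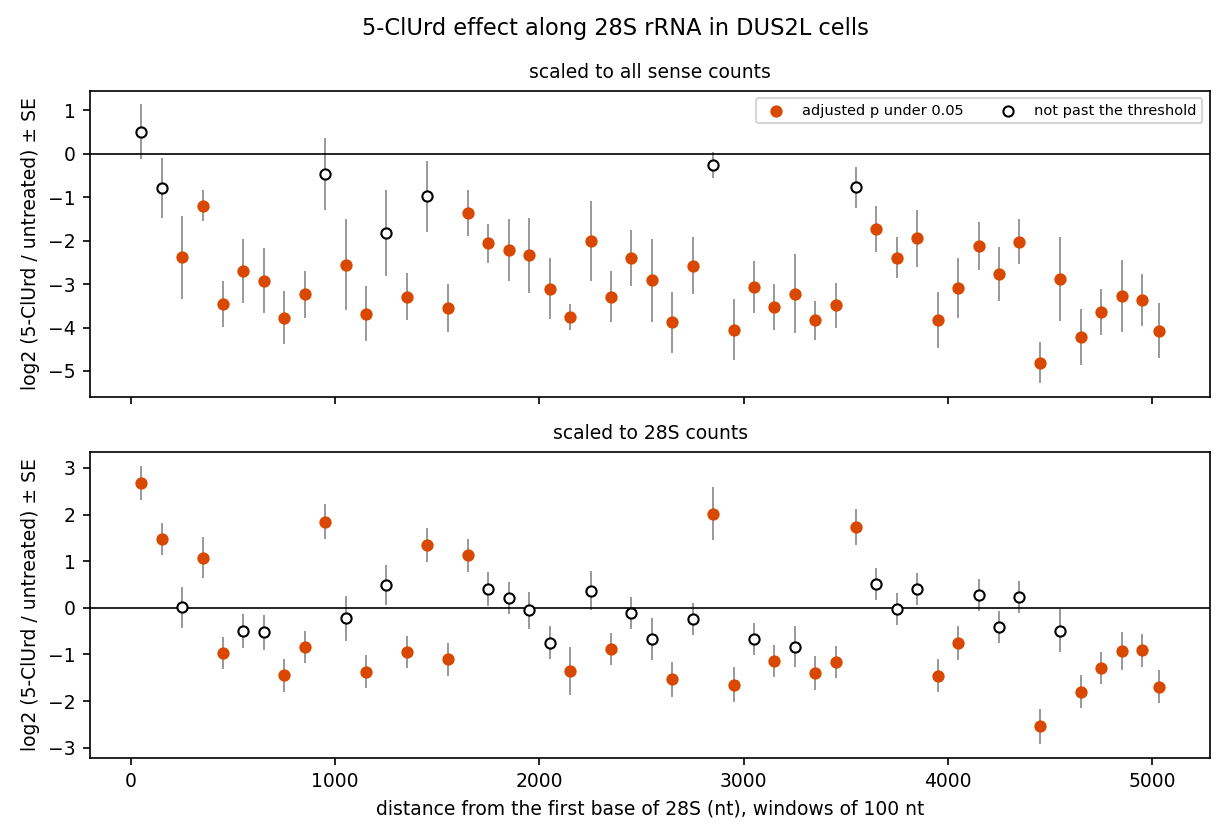
log2 change with 5-ClUrd in DUS2L cells, with its SE, for the 51 windows of 28S against the distance from its first base (nt), scaled to all sense counts (top) and to 28S counts (bottom). Filled points passed the adjusted threshold of 0.05. In the top panel 44 windows lie below 0 and pass; in the bottom panel 8 pass above 0 and 21 below.

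DUS1L cells showed little change by window. In edgeR's test 0 of 51 windows were higher and 1 was lower with 5-ClUrd, against 11.7% higher and 3.88% lower among all 103 rows. An unadjusted p under 0.05 was found for 8 windows, all lower, and DESeq2's Wald test called 0 (5 unadjusted). The lower one, named after its values were seen, was the window from 3201 to 3300, with 7.62 and 0 counts per 100000 untreated and 1.09 and 0.369 treated (-3.08 ± 0.92, adjusted p = 0.0315). Its groups overlapped, and the call was lost without either treated library (0 windows each). Without the first untreated library 2 windows passed and without the second 7. The window from 501 to 600 (chr21:8441646-8441745) had the highest levels of the treated DUS1L libraries, with 57.5 and 0 counts per 100000 untreated and 67.2 and 115 treated (1.22 ± 1.21, adjusted p = 0.455). Of the other windows with high means over the 4 DUS1L libraries, that starting at 1701 held 43.2 and 17.5 per 100000 treated and that starting at 1601 held 31.5 and 18.8, and neither passed the threshold (adjusted p = 0.827 and 0.850). Scaled to 28S counts, the window from 3201 to 3300 was again the one called, as lower, against 4.85% higher and 1.94% lower among all rows.

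The effects of 5-ClUrd differed between the enzymes in 25 windows, all lower in DUS2L, against 36.2% lower among all 105 rows (edgeR interaction term, 28 at an unadjusted p under 0.05). The window from 2901 to 3000 led with -5.61 ± 1.13 (adjusted p = 0.0111), followed by that from 2301 to 2400 with -4.70 ± 0.86 (adjusted p = 0.00679). The number was unstable. With TMM factors it was 0 (2 at an unadjusted p under 0.05) and with DESeq2 size factors or its Wald test 3. Without the first or the second treated DUS1L library it was 2 and 0 (24 and 25 unadjusted), without the first or the second untreated DUS2L library 2 and 13, and without the first treated DUS2L library 3. Scaled to 28S counts, the windows starting at 1, 3501 and 4101 were higher in DUS2L and those starting at 2301 and 2901 lower. Among all rows 25.7% were higher and 1.90% lower, and the lower rows were these same 2 windows. The window starting at 1 stood at 3.78 ± 0.78 (adjusted p = 0.00173).

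Without the analogue, 49 of 51 windows were higher with DUS2L than with DUS1L, against 70.5% higher and 92.4% called in either direction among all 105 rows (edgeR), and the exceptions were those starting at 501 (1.33 ± 0.82) and 1401 (2.12 ± 1.09). With TMM factors 3 passed. Scaled to 28S counts, 3 windows were higher with DUS2L, against 13.3% of all rows, and 4 were lower, against 32.4%. The higher ones began at 2101 (1.65), 2901 (2.20) and 3301 (1.50), and the lower ones at 201 (-1.89), 501 (-2.92), 1401 (-2.05) and 4501 (-1.65). The window from 501 to 600 held 0.730% and 1.07% of untreated DUS2L 28S counts and 8.16% and 0% of untreated DUS1L 28S counts, so that the groups overlapped through the library with 23 counts. The lower windows starting at 201 and 4501 overlapped as well.

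Single positions were compared next. The highest sites of the DUS2L libraries were 324 (chr21 8441469) and 2890 (chr21 8444035), by mean counts per 100000 sense counts over the 4 libraries. Site 324 held 360 and 702 counts untreated and 557 and 1014 treated, or 277 and 408 against 150 and 279 per 100000. It changed by -0.67 ± 0.26 (edgeR adjusted p = 0.0379), but its treated and untreated libraries overlapped. Site 2890 held 333 and 505 counts untreated and 927 and 1078 treated, or 256 and 293 against 250 and 297 per 100000 (-0.01 ± 0.26, adjusted p = 0.987). In DUS1L libraries site 324 held 0, 0, 5 and 0 counts and site 2890 held 1, 0, 11 and 6.

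Position 4487 (chr21 8445632) was the third site of DUS2L and behaved otherwise. It held 373 and 353 counts untreated, 287 and 205 per 100000, and 8 and 28 treated, 2.16 and 7.71 per 100000. Both treated libraries lay far below both untreated ones, a change of -5.63 ± 0.48 (edgeR adjusted p = 9.25e-26). Sites 2145, 2146, 2152 and 2155 within the window from 2101 to 2200 held between 58.7 and 130 counts per 100000 untreated and between 2.16 and 16.8 treated, and changed by -3.01, -2.89, -4.37 and -4.53 on the log2 scale. Site 1322 fell by 3.25, from 126 and 117 to 11.6 and 13.8 per 100000. Of the positions beside 2890, 2 others among the highest sites did not pass: site 2891 held 46.1 and 122 untreated and 97.6 and 217 treated (0.90 ± 0.40, adjusted p = 0.0659), and site 2887 held 36.2 and 91.8 untreated and 9.98 and 46.3 treated (adjusted p = 0.126).

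Of the 4095 occupied positions, 1189 held the 10 counts over the 4 DUS2L libraries that the test required. A site that is low in one group could reach this minimum only through the other, so that the counts that follow describe these sites and no more. By edgeR's test 544 were lower and 7 higher with 5-ClUrd, against 17% lower, 14.9% higher and 31.9% in either direction among all 5140 sites of tRNA and rRNA, and the lower ones lay in 50 of the 51 windows. Of the 544, 156 had 0 counts in both treated libraries. The number of calls depended on single libraries: without the first or the second untreated library it was 0 (360 and 500 at an unadjusted p under 0.05), and without the first or the second treated one 236 and 260. With TMM factors it was 99 and in DESeq2's Wald test 245. Scaled to 28S counts, 69 sites were higher and 50 lower. The share over all sites is not available for this scaling. Among windows and other families 53.3% of rows were higher and 20% lower with it, so the 2 site numbers are not read as a result about 28S.

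Among separated sites, those with the lowest fitted changes had 0 treated counts, so that bounds are given and not ranked. They were 4249, with 23 and 29 counts untreated and 0 and 0 treated, at least 42.1-fold lower against a floor of 3 counts over both treated libraries, and 4687, 4699, 3721 and 4713, at least 25.9-fold to 28.3-fold lower. The 7 higher sites were 53, 110, 112, 2889, 3615, 3893 and 4366. Site 53 (chr21 8441198) went from 0 and 0 to 76 and 343 counts, at least 57.5-fold higher against the floor of 3 counts over both untreated libraries (edgeR adjusted p = 1.67e-08). Site 110 went from 0 and 0 to 8 and 45 counts, at least 7.27-fold higher, and site 112 from 0 and 1 to 27 and 70. Site 4366 went from 1 and 5 to 50 and 243 counts, and site 2889, next to 2890, from 12 and 37 to 103 and 390. Sites 3615 (8 and 26 treated counts) and 3893 (4 and 21) had no untreated count (0 and 0). In each of the 7 the second treated library held more counts than the first, and sites 53 and 110 held at most 1 count in any DUS1L library.

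The highest DUS1L sites formed a short run at 528, 529 and 530 (chr21 8441673 to 8441675). Site 529 held 39 and 0 counts untreated and 147 and 149 treated, or 27.0 and 0 against 17.8 and 27.5 per 100000, with overlapping groups (0.13 ± 0.87, edgeR adjusted p = 0.917). Site 530 held 7 and 0 untreated and 139 and 114 treated (2.11 ± 1.00, adjusted p = 0.0878), and site 528 held 22 and 0 against 35 and 100. In DUS2L libraries site 529 held 0, 7, 1 and 11 counts. Sites 3891, 4054, 525 and 2355 came next among those whose rank did not rest on the shallowest library. Sites 1658, 2827 and 2832 reached the top 10 through 2 counts each in the library of 23 counts and were not tested.

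Of 28S sites, 95 reached 10 counts over the DUS1L libraries. The treated libraries held 1367178 sense counts together and the untreated ones 151691, so that a site with 0 or 1 untreated count could reach this minimum only through the treated libraries, and the calls describe these sites alone. By this test 12 were higher and 3 lower with 5-ClUrd, against 31.7% higher, 2.31% lower and 34% in either direction among all 4715 sites (edgeR), and each of the 12 higher ones rested on 0 or 1 untreated count. The balance turned in other settings, with 1 higher and 3 lower with TMM factors, 6 higher and 31 lower with a minimum of 1 count, and 0 higher and 21 lower with all 8 libraries in one fit. Site 1861 went from 0 and 0 to 43 and 59 counts and site 1706 from 0 and 0 to 89 and 13, each at least 3.77-fold higher against a floor of 3 counts over both untreated libraries. Sites 526, 531 and 1433 went from 0 and 0 to 28 and 45, 51 and 21, and 70 and 4 counts, at least 2.70-fold, 2.66-fold and 2.74-fold higher. Site 1433 thus rests mainly on the first treated library. Sites 525, 2355 and 3891 went from 1 and 0 to 38 and 82, 57 and 67, and 77 and 88 counts. The 3 lower sites were 1724 (16 and 0 counts against 0 and 0), 2697 (8 and 0 against 1 and 2) and 4340 (20 and 0 against 9 and 3), and none was separated. Without the first untreated library 0 sites passed (0 at an unadjusted p under 0.05), without the second treated one 26 did, and DESeq2's Wald test called 0 (2 unadjusted).

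The deposited peaks are stretches whose score, at least 10, equals the summed counts of the sites inside, and so hold the same counts as the sites above. Their calling rule was not given, and a summed count above 10 did not by itself make a peak. On 28S the untreated DUS1L libraries had 7 and 0 peaks, the treated ones 24 and 26, the untreated DUS2L libraries 51 and 42 and the treated ones 31 and 47. Since a fixed minimum count meets libraries of different depth, these numbers are not compared between groups. Replicates shared 15 peaks by at least 1 nt in treated DUS1L cells (62.5% and 57.7% of the lists), 21 in untreated DUS2L cells (41.2% and 50%) and 22 in treated DUS2L cells (71.0% and 46.8%). Peaks held 17.5% and 24.3% of the untreated and 46.4% and 53.6% of the treated DUS2L counts on 28S. These shares depend on the calling rule and are not compared either. The region from 2142 to 2146 held 2.86% and 3.20% of untreated DUS2L 28S counts, yet was a peak in both treated and in neither untreated DUS2L library. Merged over libraries there were 126 regions, of which 104 had a peak in a DUS2L library, 41 in a DUS1L library and 19 in a library of both enzymes.

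8 regions had a peak in all 4 DUS2L libraries, a choice that asks for at least 10 counts in both treated libraries. The highest, 2887 to 2892 (chr21:8444032-8444037), held 421 and 661 counts per 100000 untreated and 394 and 710 treated. The region from 321 to 325 (chr21:8441466-8441470) held 295 and 463 untreated and 154 and 301 treated, and that from 3593 to 3595 held 59.2 and 27.3 untreated and 59.0 and 42.7 treated. In these 3 regions the treated and untreated libraries overlapped. In the other 5 (1146 to 1149, 1765 to 1767, 4078 to 4081, 4157 to 4160 and 4484 to 4489) both treated libraries lay below both untreated ones, as they did in 94 of all 126 merged regions (74.6%), while in 8 they lay above and in 24 they overlapped. The last of them, chr21:8445629-8445634, held 442 and 290 untreated and 2.97 and 11.0 treated. The treated mean over the untreated mean ran from 0.0191 there to 1.18 at 3593 to 3595.

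As a share of 28S counts, the region from 2887 to 2892 went from 2.91% and 6.54% to 22.0% and 23.6% in DUS2L cells, and that from 321 to 325 from 2.04% and 4.59% to 8.64% and 10.0%. Both were separate between treated and untreated libraries. 28S as a whole changed by a similar amount when its highest site was left out (-2.45) or, an alternative chosen after the data were seen, its 2 highest peak regions (-2.81). The region from 527 to 530 stood apart by enzyme, with 48.5, 0, 39.9 and 69.9 counts per 100000 in the DUS1L libraries (untreated, untreated, treated, treated) and 0, 5.81, 1.62 and 9.92 in the DUS2L libraries. The shallowest DUS1L library, at 0, overlaps the DUS2L values, and the other 3 DUS1L libraries lie above all of them.

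**Figure D4:**
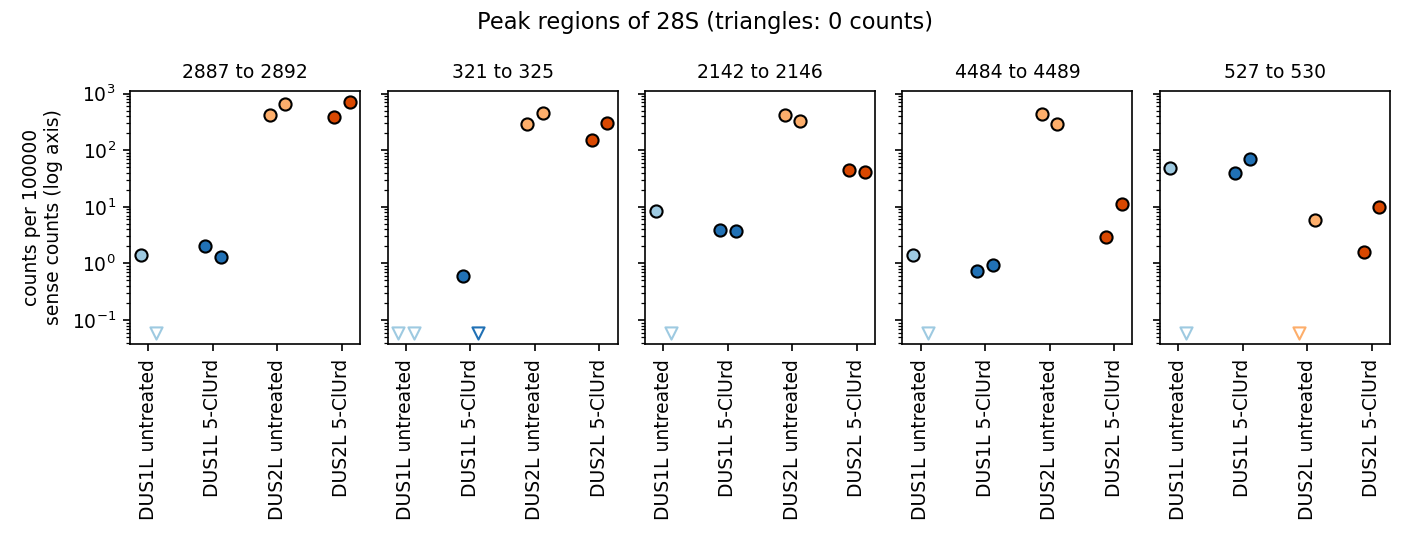
Counts per 100000 sense counts (log axis) in 5 peak regions of 28S, given by their positions, with one point per library and triangles for 0 counts. Regions 2887 to 2892 and 321 to 325 overlap between treated and untreated DUS2L libraries, regions 2142 to 2146 and 4484 to 4489 do not, and region 527 to 530 is highest in 3 of 4 DUS1L libraries.

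Counts on the minus strand of 28S varied between groups and stand beside these results. They were 28.2%, 23.3%, 31.4% and 27.9% of 28S counts in the DUS1L libraries, 0.829% and 1.08% in the untreated and 7.23% and 15.5% in the treated DUS2L libraries. 18S rRNA had minus-strand shares of 13.4%, 50%, 21.1% and 34% in the DUS1L libraries, 0.856% and 1.90% in the untreated and 8.51% and 20.1% in the treated DUS2L libraries. On tRNA the minus strand never held more than 0.268% of counts. Per 100000 sense counts, antisense counts on 28S were 277, 95.0, 240 and 192 in the DUS1L libraries and 121, 110, 139 and 550 in the DUS2L libraries. The DUS1L value of 95.0 rests on 7 antisense counts in the shallowest library, and both untreated DUS2L libraries lay below the other 3 DUS1L libraries. Adding both strands left the DUS2L change at -2.18 (edgeR adjusted p = 0.000196), and what part minus-strand signal has in the DUS1L sense counts was not tested. The deposited sequence tables used here do not cover 28S, so that the bases at these sites were not analysed here.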

How the data were processed

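Crosslink sites of 8 iCLIP libraries were used. Per the file columns, the deposited site files hold raw counts for single-nucleotide sites by strand, one file per library. In the deposited peak files the score, never under 10, matched the total of the site counts inside for 1680 of 1680 peaks. The submitters' processing notes list STAR 2.7.0f as a tool and hg38 as the build, while the peak caller, any filter and the use of molecular identifiers were not given in the sources used here. DUS2L site files carry other names than those of DUS1L. The reference of the files holds 1 copy of the repeated 45S gene, whose parts were placed with the RefSeq annotation. Floors of 3 counts cover counting error only.

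Sense counts were summed to 55 families (28S, 18S, 5S, 5.8S, the spacers of 45S and 50 of tRNA), to 51 windows of 28S beside the other families, or kept by site. Rows holding 10 or more counts in the libraries of a fit went into edgeR 4.0.16 (quasi-likelihood F test, R 4.3.3), scaled to total sense counts, with Benjamini-Hochberg adjustment over all rows and a threshold of 0.05. The SE is the log2 change over the root of F. Effects of 5-ClUrd used the 4 libraries of an enzyme, and comparisons between enzymes all 8. Ratios and shares were compared by exact two-sided permutation tests. The fits were also run on simulated counts with the same spread for all rows, which real replicates need not have, so that this run is not used as support for the calls.

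Other settings were TMM and DESeq2 (1.42.0) scaling, the Wald test of DESeq2, other minimum counts, scaling to tRNA or 28S counts, each site counted once, other windows, the replicate number as a block, and each library left out, where the remaining one was taken to vary as the rest do. Dropping the 2 highest peak regions and summing both strands were added after the data were seen.

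Named were, per enzyme, the 10 sites and 5 windows with the highest mean level over its 4 libraries, and up to 5 sites and windows per direction with the largest change past the threshold and no overlap. Others named complete a small count or were chosen after their values were seen. The members and lists were chosen with earlier results of these data known. Python (3.11.15), with numpy 2.4.6, pandas 2.3.3 and matplotlib 3.10.9, served for the remaining tables and the plots.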

Additional observations from a re-analysis of the deposited data

Results flagged for a closer look

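The change of 28S rRNA with 5-ClUrd differed between the enzymes, by -2.30 on the log2 scale (DUS2L minus DUS1L, edgeR interaction term, adjusted p = 0.0260). Both treated DUS2L libraries lay below both untreated ones, while the treated DUS1L libraries lay between the untreated ones. The call was lost in 5 of 8 fits with a library left out, with TMM factors and with each site counted once. In 25 of 51 windows of 28S the effects also differed, all lower in DUS2L, against 36.2% lower among all 105 rows. That number was 0 with TMM factors, 3 with DESeq2 size factors, and between 0 and 3 without either treated DUS1L library, the first untreated or the first treated DUS2L library.

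A signal lay outside the sense counts on which the comparisons rest. Antisense counts on 28S in treated DUS2L libraries were 139 and 550 per 100000 sense counts, above both untreated DUS2L libraries (121 and 110). The highest antisense site of both treated libraries was position 1429, with 112 and 274 counts, and it was also the highest of the second untreated library, with 30. On the sense strand that position held 0 and 0 counts in untreated and 1 and 3 in treated DUS2L libraries, and 1 and 0 in untreated and 141 and 4 in treated DUS1L libraries, where it was 1 of the 12 sites called higher (3.73 on the log2 scale, edgeR adjusted p = 0.0408). In the first untreated library position 1566 was highest, with 19 counts. In DUS1L the first untreated and first treated libraries had their highest antisense site at position 2400, with 91 and 252 counts. The deposited peak files list 7 and 15 antisense peaks on 28S in treated DUS2L libraries and 1 and 1 in untreated ones. Since the treated libraries were deeper, with 370878 and 363024 sense counts against 130011 and 172078, these numbers of peaks are not compared.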

How the results depend on the processing

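The 28S fall in DUS2L cells kept its sign and its side of the threshold in all 16 alternatives, from -0.81 (each site counted once) to -3.12 (DESeq2 size factors), and from -2.78 to -2.03 with a library left out. In DUS1L cells its sign turned with the replicate block (0.10), each site counted once (0.55) and both strands (0.040), and lay between -0.47 and 0.71 with a library left out (0.03 without the second treated one); none passed. The difference of effects missed the threshold with TMM factors (-3.18) and each site counted once (-1.30), and ranged from -3.06 to -1.89 with a library left out. The comparison of untreated cells missed it with each site counted once (1.89; 4.12 to 5.30 with a library left out), and that of treated cells with TMM factors (1.80) and each site counted once (0.59; 1.81 to 2.56). The cause was not tested. The 28S to 18S ratio of DUS1L cells turned from 0.26 to -0.31 with each site counted once and -0.27 without the highest site of each rRNA, and the untreated ratio between enzymes to -0.0039 with each site counted once.

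Counts of 28S windows called with 5-ClUrd in DUS1L cells, 1 in the main setting, were 6 with TMM factors, 2 with DESeq2 size factors, 0 in DESeq2's Wald test (5 at an unadjusted p under 0.05), 0 with a minimum of 50 counts (7 unadjusted), 0 with the replicate block (0 unadjusted), 4 with all 8 libraries in one fit, 4 of 100 with windows of 50 nt, 0 of 26 with 200 nt (2 unadjusted), and 0 to 7 with a library left out. For DUS2L they were 90 of 101 and 24 of 26 with windows of 50 and 200 nt, which changes the number of windows, 29 scaled to 28S counts, and 34 to 46 with a library left out. For the difference they were 0, 3 and 3 with TMM factors, DESeq2 size factors and its Wald test, 13 with the replicate block, 13 of 26 with 200 nt, 5 scaled to 28S counts, and 0 to 25 with a library left out. For untreated cells they were 3 with TMM factors, 96 of 101 and 26 of 26 with windows of 50 and 200 nt, 7 scaled to 28S counts, and 42 to 50 with a library left out.

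Counts of 28S sites called in DUS1L cells, 15 in the main setting, were 4 and 6 with TMM factors (1 higher, 3 lower) and DESeq2 size factors (3 and 3), 0 in DESeq2's Wald test (2 unadjusted), 37 with a minimum of 1 count (6 higher, 31 lower), 21 with all 8 libraries in one fit (0 higher, 21 lower), 23 with the replicate block, and 0 to 26 with a library left out. In DUS2L cells, 551 in the main setting, they were 99 with TMM factors, 245 in the Wald test, 66 and 98 with minimums of 1 and 50 counts, 235 with the replicate block, 119 scaled to 28S counts (69 higher, 50 lower), and 0 to 260 with a library left out. The 228 peaks on 28S became 149 with a score of at least 20.

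The labels do not say that replicate numbers pair the libraries, and deviations of same-numbered libraries over families correlated at 0.27 in DUS1L and 0.30 in DUS2L (-0.23 and 0.18 over 28S windows), with 2 pairs each. With the replicate block the 28S change in DUS2L was -2.38 (edgeR adjusted p = 0.00865), and beyond the counts above it changed no call of 28S as a whole. The library of 23 counts limits every DUS1L value. The planned tests by base at the site and around 2 sequence landmarks were not run, because no 28S sequence was at hand.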
